A study of Homo sapiens with 4 samples.

Results

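In HFL1 cells with and without calumenin 132 noncoding genes of the annotation class antisense were followed. Such genes are named for lying on the strand opposite to another gene, and 104 of the 132 overlapped a protein-coding gene in that way. They were selected on measured level: every gene of biotype antisense in the expression table with a mean of at least 3 FPKM (fragments counted on a gene, scaled by its exon length and by the depth of the library) over the 4 libraries, leaving out the snoRNA hosts GAS5, ZFAS1 and those named SNHG. These were 132 of 5583 antisense genes and of 58735 genes in all, and 2016 antisense genes had 0 reads in every library. The exception by name removed 2 genes that reached the minimum, ZFAS1 and SNHG7. Just inside the minimum lay GATA2-AS1 at a mean of 3.04, AC015712.7 at 3.02 and AC000123.1 at 3.006 FPKM, and just outside it RBPMS-AS1 at 2.99, AL391988.1 at 2.99 and FOXN3-AS1 at 2.98 FPKM.

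The libraries were 2 of HFL1 cells knocked out for calumenin (KO) and 2 of wild-type HFL1 cells (WT), and the labels give no treatment, time, clone or guide. HFL1 is a line from human fetal lung fibroblasts, and the product of CALU binds calcium in the endoplasmic reticulum and beyond. The series was made to see what calumenin does to senescence and to fibrotic signals in fibroblasts. Nothing in the labels says that replicates were grown or cloned separately, so p-values here cover the variation among the 4 libraries alone, which may be technical.

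The reads recovered from the FPKM values numbered 17699349 and 16622382 in KO and 17715774 and 16173899 in WT. CALU itself, on chr7:128739292-128771807, had 6.59 and 5.95 FPKM in KO against 87.7 and 81.8 FPKM in WT, a log2 change of -3.56 with a standard error (SE) of 0.14 (limma adjusted p = 0.00154). The label fibroblast was not borne out by its markers: COL1A2 had 0 reads in every library, DCN and FAP were at 0 in both KO libraries and in WT replicate 1, and COL1A1 had 3.04 and 3.16 FPKM in KO against 0.234 and 0.280 FPKM in WT. The 10 fibroblast markers summed to 561 and 813 FPKM in KO and to 1011 and 1401 FPKM in WT, most of it S100A4 and VIM. Only 4 of the 10 could be tested, of which 1, COL1A1, was called higher and 0 lower. The median log2 change of these 4 was 0.49 although the sum of the 10 was lower in KO, so the median and the sum differed in direction. Whether the markers fell as a set was not tested. The 6 markers of simple epithelium, with the keratins KRT8 and KRT18 at the top, summed to 1530 and 1760 FPKM in KO and to 706 and 813 FPKM in WT. Of the 6, 4 rose and 1 fell, CLDN4, at 0.947 and 0.973 FPKM in KO against 4.57 and 5.27 FPKM in WT. Of these 5 calls 3 held without any 1 library, and those of KRT8 and KRT18 were lost without WT replicate 1 (limma adjusted p = 0.141 and 0.104) or WT replicate 2 (0.0603 and 0.0594), that of KRT8 also without KO replicate 2 (0.0715). Endothelial markers summed to at most 0.937 FPKM in any library. Of the leukocyte markers CD3E had 0 reads and PTPRC at most 0.0239 FPKM, while CD14 fell to 5.84 and 6.41 FPKM in KO against 19.4 and 16.9 FPKM in WT. All 20 genes of a cell-division list rose and 18 of 20 p53 target genes fell, with 0 changes the other way, and 20 and 12 of these calls held without any 1 library. The part of these shifts in the changes of antisense genes was not tested, and in RNA from a whole culture fewer cells of a kind and less RNA per cell cannot be told apart.

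An antisense transcript may begin inside its partner gene, at a start site shared back to back with the partner, or beyond the partner's end and run into it. Some such RNAs act on the partner in cis, by the act of transcription across it, by recruiting chromatin proteins or by pairing with its RNA, while for many the RNA is a short-lived product of a bidirectional promoter that the nuclear exosome removes. In the HOX clusters antisense RNAs are interleaved with the homeobox genes and are often expressed together with them.

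By position, 104 of the 132 antisense genes overlapped at least 1 protein-coding gene on the other strand and 28 did not. The overlaps made 125 pairs with 123 different partners, and 89 antisense genes had 1 partner while 15 had more, up to 4. In 47 pairs the antisense gene lay wholly inside the span of the partner, in 38 the 5′ ends overlapped (head to head), in 26 the 3′ ends overlapped (tail to tail) and in 14 the antisense gene reached around the partner. Exons of both strands covered the same bases for 68 antisense genes, over 4 to 1181 bases with a median of 220.5, which was 0.402% to 68.5% of the antisense exon length with a median of 16.9%. In 36 further genes the partner was overlapped only outside exons. Whether reads were counted by strand is not given in the sources used here, and without strand reads from a gene and its antisense partner cannot be told apart over shared exon bases, so the shared exon bases are given beside the pairs described.

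Stretches of the RNA show how such overlaps look. Each has 60 bases of the antisense RNA from GENCODE release 29 transcripts, 5′ to 3′, chosen because the overlap with the partner is short and, at AC007773.1, the antisense gene and its partner did not change alike. Capitals mark the bases opposite an exon of the partner. AC007773.1 is read from the minus strand (chr19:32405501-32405560) and its first 18 bases lie opposite an exon of DPY19L3. BX470102.1 is read from the plus strand (chr1:153535056-153535115) and its last 23 bases lie opposite an exon of S100A6.
AC007773.1: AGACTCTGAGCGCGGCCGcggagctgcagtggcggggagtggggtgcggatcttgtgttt
BX470102.1: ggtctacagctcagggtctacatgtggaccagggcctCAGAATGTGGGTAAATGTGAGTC

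Promoter sequence is shown for FOXD3-AS1 and ZBED5-AS1, whose RefSeq start sites lie 109 and 164 bases from that of the partner, with the genes running away from each other and no overlap in this annotation. ZBED5-AS1 is shown as a called gene, and FOXD3-AS1, which was not called, was chosen after its values were seen. In GENCODE release 29, used for all other positions here, the same pairs overlap by 1401 and 538 bases, and the antisense starts differ from those of RefSeq by 1983 and 42 bases. The partner starts differ as well. FOXD3 starts at 63323041 in GENCODE and at 63322567 in RefSeq, and ZBED5 at 10858796 and at 10858053. Each stretch runs from 20 bases before one RefSeq start to 20 bases beyond the other, from the RefSeq promoter windows on GRCh38.p14 and on the strand of the antisense gene. FOXD3-AS1 (minus strand, chr1:63322438-63322587) starts at base 130 of its stretch, and FOXD3 starts at base 21 and runs the other way. ZBED5-AS1 (plus strand, chr11:10858033-10858237) starts at base 185, and ZBED5 at base 21 runs the other way. Capitals mark the letters CCAAT, searched on both strands together with CTTCCGG and TATAAA, of which CTTCCGG and TATAAA occur in neither stretch.
FOXD3-AS1: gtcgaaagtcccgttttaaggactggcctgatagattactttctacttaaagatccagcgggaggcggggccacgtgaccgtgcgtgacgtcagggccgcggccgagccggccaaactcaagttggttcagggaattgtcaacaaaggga
ZBED5-AS1: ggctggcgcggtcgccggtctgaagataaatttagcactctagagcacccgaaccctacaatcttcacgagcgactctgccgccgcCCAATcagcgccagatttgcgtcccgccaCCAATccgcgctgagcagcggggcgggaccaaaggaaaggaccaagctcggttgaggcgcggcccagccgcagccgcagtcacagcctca

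RefSeq promoter windows of 300 bases, 250 before and 50 after the start, were found for 39 of the 132 antisense genes. The median GC content was 65.0% in these 39 against 58.7% in all 35116 windows, and the median number of CpG dinucleotides was 22 against 14. CCAAT occurred in 41.0% of the 39 windows and in 34.6% of all, CTTCCGG in 5.13% and 10.3%, and TATAAA in 0 of 39 and in 11.5% of all. The 39 were selected on level and the 35116 were not, and the part of that selection in these differences was not tested. Some windows also lay far from the GENCODE start, whose difference from the RefSeq start was -46328 bases at HOXB-AS3 and 33727 at DHRS4-AS1. A start site of the partner or neighbour lay close enough for the windows to share bases in 6 pairs, which besides the 2 printed were NRSN2-AS1 with SOX12, MHENCR with GMEB2, WAC-AS1 with WAC and FAM201A with ANKRD18A.

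The antisense genes were of low abundance. Their mean levels ran from 3.006 to 30.9 FPKM with a median of 4.40 FPKM, 76 lay below 5 FPKM and 14 reached 10 FPKM. Exon length ran from 289 to 17179 bases, and the reads summed over the 4 libraries from 71 to 10875 with a median of 353.5. Taken as a share of all reads, the 132 genes made up 0.118% and 0.121% in KO against 0.144% and 0.150% in WT, so both KO libraries lay below both WT libraries. Such a share is weighted toward the genes with most reads, and the part of single genes in it was not tested. The share of all antisense genes of the table was 0.328% and 0.346% in KO against 0.379% and 0.407% in WT. By name 84 of the 132 carry only a clone identifier, and no function is given for those below.

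The most abundant antisense gene was FGD5-AS1, a widely expressed antisense RNA that begins head to head with NR2C2, which encodes a nuclear receptor, and shares 155 exon bases with it. It had 36.1 and 30.8 FPKM in KO against 29.2 and 27.4 FPKM in WT (log2 change 0.23, SE 0.15, limma adjusted p = 0.306), and NR2C2 had 7.79 and 6.19 FPKM in KO against 7.76 and 6.34 FPKM in WT. AL391427.1, inside the aldo-keto reductase gene AKR1C2 with 0 shared exon bases, had 38.97 and 19.8 FPKM in KO against 28.1 and 20.6 FPKM in WT, so the groups overlapped. AKR1C2 itself had 463 and 466 FPKM in KO against 324 and 309 FPKM in WT (adjusted p = 0.0642). AC005288.1, which runs from FBXL20 toward the mediator subunit gene MED1 and shares 0 exon bases with either, had 16.3 and 13.98 FPKM in KO against 21.5 and 17.5 FPKM in WT (adjusted p = 0.183). Each of these 3 genes missed the threshold of 0.05.

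TGFB2-AS1, which starts 557 bases from the start of the growth factor gene TGFB2, differed more within groups than between them. It had 9.12 and 23.6 FPKM in KO against 4.92 and 19.9 FPKM in WT, with replicate 2 the higher in both groups (log2 change 0.50, SE 0.68, limma adjusted p = 0.633). TGFB2 had 21.8 and 15.4 FPKM in KO against 16.1 and 15.7 FPKM in WT, and did not follow that order. KRT7-AS, inside the keratin gene KRT7, with which it shares 282 exon bases (16.7% of its exon length), rose to 17.4 and 19.3 FPKM in KO against 11.7 and 12.8 FPKM in WT (log2 change 0.55, SE 0.14, adjusted p = 0.0399). KRT7 had 354 and 492 FPKM in KO against 289 and 321 FPKM in WT (adjusted p = 0.192). The KRT7-AS call was close to the threshold and was lost without any 1 of the libraries, with adjusted p of 0.0546 without KO replicate 1, 0.0847 without KO replicate 2, 0.283 without WT replicate 1 and 0.181 without WT replicate 2. The remaining 3 of the 8 most abundant, AC099850.3, AL157935.1 and GACAT2, are described with the largest changes.

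Of the 132 antisense genes, all of which passed the filter on low values, 18 were called higher and 32 lower in KO. That was 13.6% and 24.2% of them, against 12.1% and 11.1% of all 14100 genes tested, and 82 were not called. The share called higher was thus near that of all genes, and the share called lower was above it. Among the 508 other antisense genes that passed the filter 42 (8.27%) were higher and 55 (10.8%) lower, among 449 lincRNA genes 33 (7.35%) and 65 (14.5%), and among the 8372 genes of any kind within the level range of the 132 antisense genes 13.2% and 10.9%. The median log2 change was -0.09 over the 132 antisense genes and 0.03 over all genes tested. In 14 genes (10.6%) the called change was a rise of at least 2-fold in mean FPKM and in 20 (15.2%) a fall of at least 2-fold, against 7.23% and 7.09% of all genes tested. The minimum for selection was a mean over both groups. A gene low in KO could thus enter through WT, as AC015712.7 did, and a gene low in WT through KO, as AC116914.2 did. The 2-fold shares were not set beside those of genes of like level. In all 50 called genes (37.9%) the KO and WT values did not overlap, as in each of the 3283 genes (23.3%) called over the whole table. Among the 68 antisense genes that shared exon bases with a partner 12 were higher and 19 lower, and among the 64 that did not 6 (9.38%) were higher and 13 (20.3%) lower. Among the 28 with no partner 3 were higher and 6 lower.

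Few of these calls held under every setting. With no filter on low values, which put 32306 genes into the fit, 3 of the 50 were still called: AL157935.1, AL354836.1 and AC007773.1, all lower in KO. Without KO replicate 1 it was 33 of the 50, without KO replicate 2 it was 38, without WT replicate 1 it was 16 and without WT replicate 2 it was 19. None of the 50 changed direction in any of these fits.

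**Figure D1:**
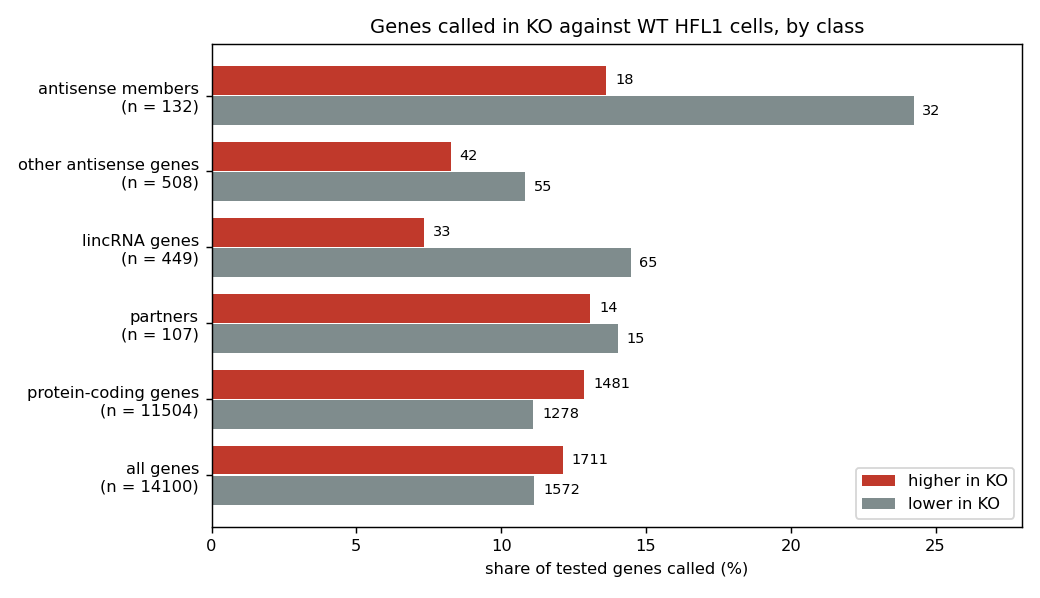
Share of tested genes called higher (upper bar of each pair) and lower (lower bar) in KO against WT, in percent, for the 132 antisense genes and for other classes, with the number of genes at each bar. The share lower is 24.2% for the 132 antisense genes and 11.1% for all genes, and the shares higher are 13.6% and 12.1%.

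**Figure D2:**
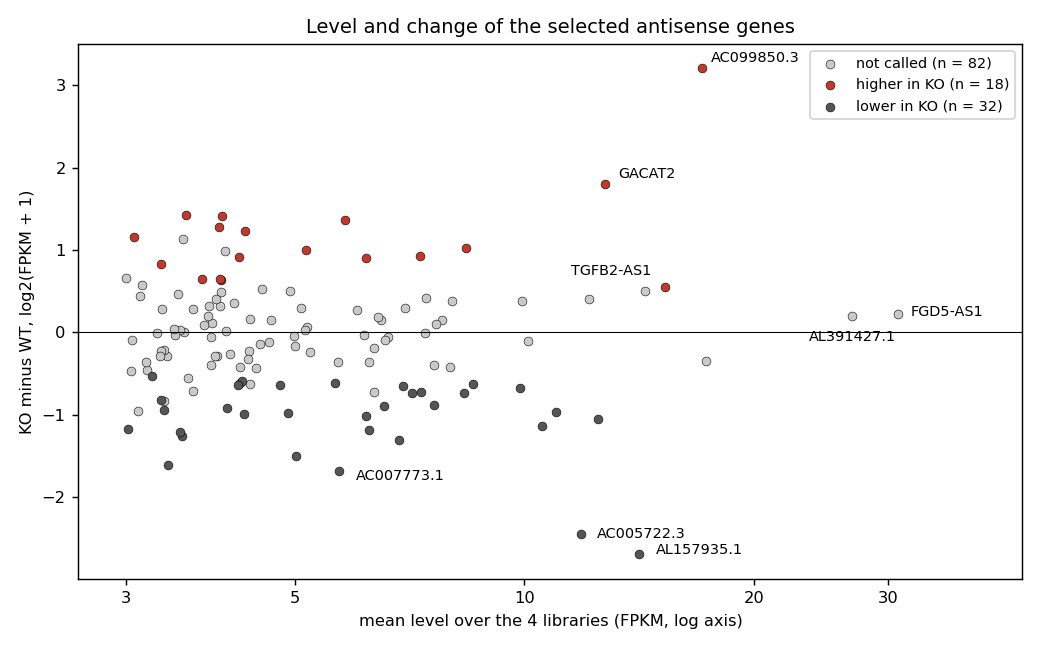
Mean level over the 4 libraries (FPKM, log axis) and KO minus WT change on the log2(FPKM + 1) scale for each of the 132 antisense genes, coloured by call. The largest rise is that of AC099850.3 at 3.21 and the largest fall that of AL157935.1 at -2.70, while the most abundant gene, FGD5-AS1, lies at 0.23.

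The antisense gene that rose most was AC099850.3 (ENSG00000265415), which lies inside PRR11, a gene associated with progression through the cell cycle, and shares 97 exon bases (30.2% of its exon length) with it. It had 40.4 and 23.0 FPKM in KO, from 227 and 121 reads, against 1.88 and 3.04 FPKM in WT, from 11 and 16 reads (log2 change 3.21, SE 0.30, limma adjusted p = 0.00433). PRR11 rose with it, to 15.001 and 13.8 FPKM in KO against 0.671 and 2.72 FPKM in WT (log2 change 2.62, SE 0.37, adjusted p = 0.00978). In every library the antisense gene stood above its partner, at 269% and 167% of the PRR11 level in KO and at 280% and 112% in WT. The antisense to PRR11 ratio, fitted over all 892 opposite-strand pairs of a noncoding and a coding gene, did not pass the threshold (log2 difference 0.58, SE 0.36, adjusted p = 0.355). The genes of the cell-division list rose as well, among them KIF20A, a mitotic kinesin, to 21.4 and 17.0 FPKM in KO against 0.401 and 1.002 FPKM in WT.

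GACAT2, named for gastric cancer, is head to head with MTCL1, which encodes a protein that crosslinks microtubules, and shares 155 exon bases (18.9%) with it. It had 19.3 and 21.2 FPKM in KO against 3.68 and 6.94 FPKM in WT (log2 change 1.80, SE 0.26, limma adjusted p = 0.0106). MTCL1 rose too, to 14.9 and 17.0 FPKM in KO against 7.14 and 8.88 FPKM in WT (log2 change 0.92, SE 0.16, adjusted p = 0.0155). In KO the antisense gene was the more abundant of the pair, at 129% and 124% of MTCL1, and in WT the less abundant, at 51.6% and 78.1%. The ratio missed the threshold of the ratio fit (0.88, SE 0.27, adjusted p = 0.117), and the MTCL1 call was lost without WT replicate 1 (adjusted p = 0.12).

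AC116914.2 lies inside ITGAE, the alpha E integrin gene, and shares 0 exon bases with it. It had 5.30 and 6.08 FPKM in KO against 1.13 and 1.89 FPKM in WT (log2 change 1.43, SE 0.19, limma adjusted p = 0.00863). These levels rest on 27 and 29 reads in KO and on 6 and 9 reads in WT, the smallest total of the 132. ITGAE had 3.62 and 3.87 FPKM in KO against 2.88 and 3.19 FPKM in WT (log2 change 0.23, adjusted p = 0.258), and the ratio of the pair gave a difference of 1.195 (SE 0.26, adjusted p = 0.0627). CDH1, which encodes E-cadherin, the ligand of this integrin, rose to 39.9 and 36.9 FPKM in KO against 6.79 and 8.55 FPKM in WT.

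AC099786.1 and AC099786.2 both overlap LHX8, a LIM homeobox gene, and both rose, AC099786.1 to 6.48 and 6.38 FPKM in KO against 1.88 and 2.46 FPKM in WT and AC099786.2 to 4.46 and 4.76 FPKM in KO against 1.17 and 1.91 FPKM in WT (limma adjusted p = 0.0067 and 0.013). LHX8 rose to 7.18 and 6.25 FPKM in KO against 3.25 and 3.18 FPKM in WT (adjusted p = 0.0125), so both members of each pair were up by 2-fold or more. AC099786.1 shared 0 exon bases with LHX8, and AC099786.2 shared 507. Without WT replicate 1 the calls of AC099786.2 (adjusted p = 0.064) and LHX8 (0.083) were lost, and that of LHX8 also without WT replicate 2 (0.0808).

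In the HOXB cluster, whose homeobox genes set position along the body axis, HOXB-AS3 rose to 5.28 and 9.35 FPKM in KO against 3.24 and 2.81 FPKM in WT (log2 change 1.01, SE 0.25, limma adjusted p = 0.0419). Its span covers or overlaps 4 homeobox genes, and it shares 425 exon bases (22.2%) with HOXB6, 73 with HOXB5, 77 with HOXB3 and 0 with HOXB4. HOXB6 had 9.10 and 10.9 FPKM in KO against 5.03 and 5.90 FPKM in WT and HOXB5 had 7.41 and 6.82 FPKM in KO against 3.54 and 3.17 FPKM in WT, and both rose (adjusted p = 0.0234 and 0.0113). HOXB3 had 5.15 and 5.24 FPKM in KO against 3.87 and 3.70 FPKM in WT (adjusted p = 0.0881), and HOXB4 was too low to be tested. These calls rested on single libraries: that of HOXB-AS3 was lost without KO replicate 2, WT replicate 1 or WT replicate 2 (adjusted p = 0.0603, 0.113 and 0.145), that of HOXB6 likewise (0.0581, 0.168 and 0.0867), and that of HOXB5 without WT replicate 1 or 2 (0.0639 and 0.082). HOTAIRM1, an antisense RNA named for its role in myeloid cells and named here after its values were seen, had 4.31 and 5.92 FPKM in KO against 2.93 and 2.77 FPKM in WT (adjusted p = 0.0465). The HOTAIRM1 call was lost without KO replicate 2 (0.107), WT replicate 1 (0.182) or WT replicate 2 (0.199), and under quantile normalization or scaling by total reads.

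AC087623.1, inside the fibroblast growth factor receptor gene FGFR1 with 156 shared exon bases (29.2%), had 7.27 and 5.26 FPKM in KO against 1.23 and 2.28 FPKM in WT (log2 change 1.41, SE 0.24, limma adjusted p = 0.0154). FGFR1 rose to 16.0 and 17.3 FPKM in KO against 10.1 and 9.38 FPKM in WT (adjusted p = 0.0181). AC020907.4, inside GRAMD1A, which encodes a cholesterol transfer protein of the endoplasmic reticulum, shares 84 exon bases with it (15.97%) and had 5.97 and 6.03 FPKM in KO against 1.25 and 2.67 FPKM in WT (adjusted p = 0.0208), and GRAMD1A rose to 59.3 and 59.1 FPKM in KO against 36.5 and 35.3 FPKM in WT (adjusted p = 0.0196). AP002807.1, tail to tail with the choline kinase gene CHKA with 631 shared exon bases (52.2%), had 4.49 and 7.27 FPKM in KO against 2.31 and 2.83 FPKM in WT (adjusted p = 0.0394). CHKA had 9.48 and 9.18 FPKM in KO against 8.79 and 6.97 FPKM in WT (adjusted p = 0.331). AP002807.1 also lies within the coding gene TCIRG1 of its own strand, so its reads may be shared with that gene as well. Leaving out 1 library ended the calls of AC087623.1 (adjusted p = 0.0514 without KO replicate 1, 0.0576 without WT replicate 1), FGFR1 (0.12 without WT replicate 1, 0.147 without WT replicate 2), AC020907.4 (up to 0.0663, without WT replicate 1, and also without either KO library), GRAMD1A (0.145 and 0.154 without WT replicate 1 and 2) and AP002807.1 (up to 0.168, without WT replicate 1, and also without KO replicate 2 or WT replicate 2).

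The other 3 of the 12 largest rises had no opposite-strand coding partner. AP003119.1 had 7.53 and 10.1 FPKM in KO against 2.24 and 3.40 FPKM in WT (log2 change 1.37, SE 0.21, limma adjusted p = 0.0126). AC022613.1 had 10.3 and 13.0 FPKM in KO against 4.99 and 5.31 FPKM in WT (adjusted p = 0.0117), and AC115618.2 had 8.63 and 11.1 FPKM in KO against 4.26 and 5.15 FPKM in WT (adjusted p = 0.0191). In each both KO libraries exceeded both WT libraries. All 3 calls were lost without WT replicate 1, at adjusted p = 0.0543, 0.0732 and 0.123, and those of AC022613.1 and AC115618.2 also without WT replicate 2, at 0.0545 and 0.0604.

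**Figure D3:**
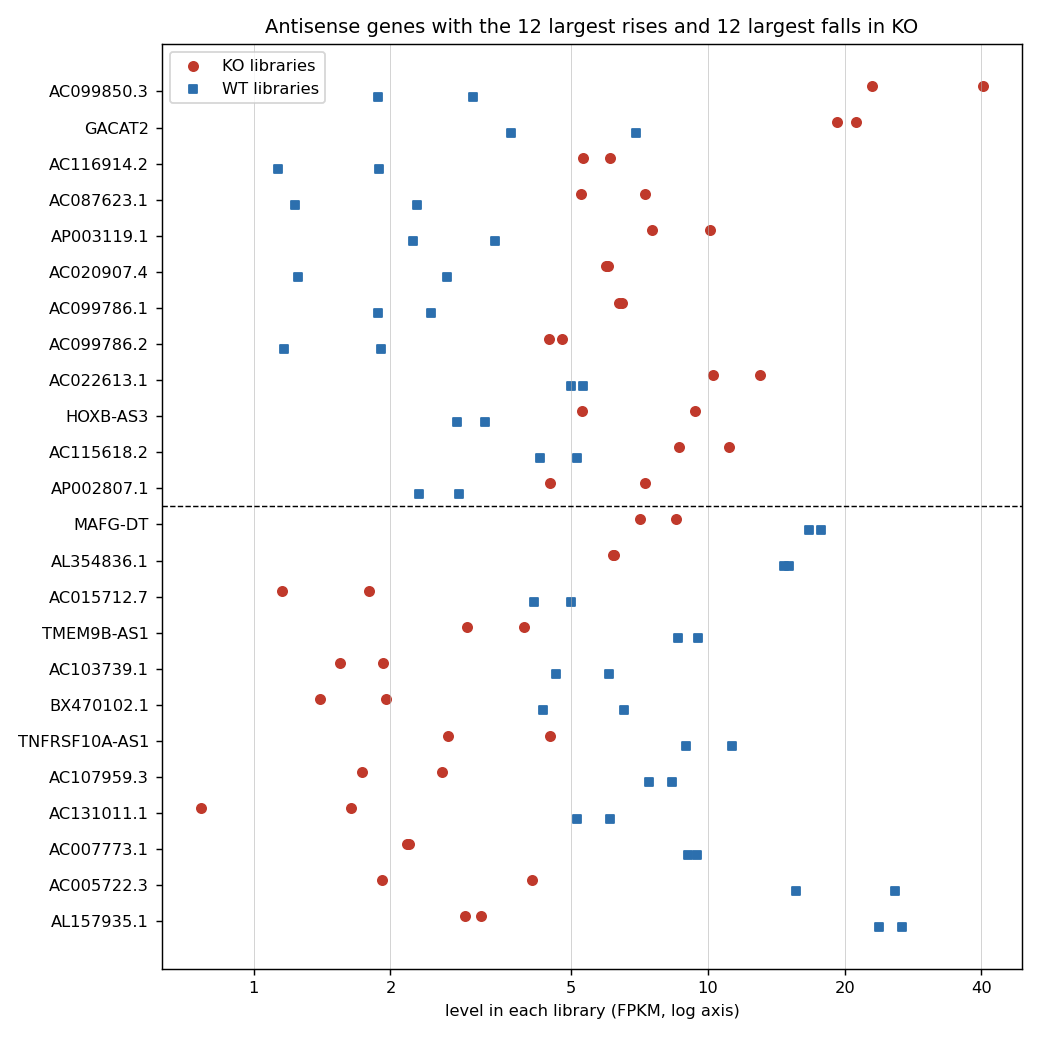
Level in each library (FPKM, log axis) of the 12 antisense genes with the largest called rises (above the dashed line) and the 12 with the largest called falls (below it), with KO libraries as circles above and WT libraries as squares. In none of the 24 do the KO and WT values overlap, and the KO values of AC099850.3, 40.4 and 23.0 FPKM, lie farthest from its WT values.

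The antisense gene that fell most was AL157935.1 (ENSG00000227218), on chr9:127934503-127940952. It had 2.92 and 3.17 FPKM in KO, from 129 and 131 reads, against 26.7 and 23.8 FPKM in WT, from 1228 and 983 reads (log2 change -2.70, SE 0.14, limma adjusted p = 0.0019). It spans DPM2, a subunit of the synthase that makes the mannose donor for glycosylation at the endoplasmic reticulum, and the 3′ end of FAM102A, with 602 (23.9%) and 279 (11.1%) exon bases shared with these partners. Both partners fell less, DPM2 to 10.6 and 14.6 FPKM in KO against 29.97 and 28.2 FPKM in WT (log2 change -1.16, SE 0.18, adjusted p = 0.012) and FAM102A to 44.0 and 40.7 FPKM in KO against 125 and 106 FPKM in WT (-1.42, SE 0.16, adjusted p = 0.00561). The ratio to DPM2 passed the threshold of the ratio fit, and the ratio to FAM102A did not. In KO the antisense level was 27.5% and 21.8% of that of DPM2, and in WT 89.1% and 84.4%. The DPM2 call was lost without WT replicate 1 (adjusted p = 0.0654).

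AC005722.3, tail to tail with ALDH3A1 over 98 shared exon bases (21.97%), had 1.92 and 4.11 FPKM in KO against 15.6 and 25.9 FPKM in WT (log2 change -2.45, SE 0.34, limma adjusted p = 0.0095). ALDH3A1, which oxidises aldehydes of lipid peroxidation, had 171 and 235 FPKM in KO against 261 and 493 FPKM in WT (log2 change -0.84, SE 0.35, adjusted p = 0.137), so KO and WT did not overlap but the test was not passed. AC015712.7, inside ALDH1A3, whose enzyme makes retinoic acid, had 1.80 and 1.15 FPKM in KO against 5.004 and 4.13 FPKM in WT (-1.18, SE 0.19, adjusted p = 0.013). ALDH1A3 itself fell more, to 1.60 and 1.82 FPKM in KO against 12.8 and 13.2 FPKM in WT (-2.37, SE 0.13, adjusted p = 0.00199), with 0 shared exon bases. The ratio of this pair missed the threshold of the ratio fit (1.19, SE 0.29, limma adjusted p = 0.0711). AC004923.4, tail to tail with the related gene ALDH3B1 with 0 shared exon bases and named after its values were seen, rose: it had 9.19 and 7.60 FPKM in KO against 4.37 and 3.63 FPKM in WT (adjusted p = 0.0156), and ALDH3B1 had 49.2 and 59.4 FPKM in KO against 28.7 and 35.1 FPKM in WT (adjusted p = 0.034). Without WT replicate 1 the calls of AC015712.7 (adjusted p = 0.0637), AC004923.4 (0.063) and ALDH3B1 (0.229) were lost, without WT replicate 2 those of AC004923.4 (0.103) and ALDH3B1 (0.0949), and without KO replicate 2 that of ALDH3B1 (0.0792).

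AC007773.1 (ENSG00000267213) shares its first 18 bases with DPY19L3, a gene for an enzyme that attaches mannose to tryptophan, as the printed stretch shows. It had 2.17 and 2.20 FPKM in KO against 9.47 and 9.04 FPKM in WT (log2 change -1.69, SE 0.13, limma adjusted p = 0.00333). DPY19L3 had 7.03 and 5.34 FPKM in KO against 7.37 and 5.55 FPKM in WT, with overlapping groups (-0.05, SE 0.19, adjusted p = 0.863). TMEM9B-AS1, head to head with the membrane protein gene TMEM9B over 221 shared exon bases (19.02%), showed the same kind of difference, with 2.95 and 3.94 FPKM in KO against 9.52 and 8.61 FPKM in WT (-1.19, SE 0.16, adjusted p = 0.00902), while TMEM9B had 13.9 and 12.7 FPKM in KO against 14.1 and 14.3 FPKM in WT (adjusted p = 0.653). The TMEM9B-AS1 call was lost without WT replicate 1 (adjusted p = 0.0519), and its ratio to TMEM9B missed the threshold (-1.10, SE 0.27, adjusted p = 0.0753).

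TNFRSF10A-AS1, tail to tail with TNFRSF10A, had 4.48 and 2.68 FPKM in KO against 8.94 and 11.3 FPKM in WT (log2 change -1.30, SE 0.23, limma adjusted p = 0.0167). TNFRSF10A, a receptor for the death ligand TRAIL, fell to 7.02 and 8.87 FPKM in KO against 20.9 and 19.8 FPKM in WT (-1.26, SE 0.16, adjusted p = 0.00689). The pair shares 224 exon bases, 35.2% of the antisense exon length, and the partner is the more abundant, and without strand the reads of both genes cannot be told apart over those bases. BX470102.1, tail to tail with the calcium-binding protein gene S100A6 over the 23 shared bases printed above, had 1.40 and 1.95 FPKM in KO against 4.33 and 6.55 FPKM in WT (adjusted p = 0.0157). S100A6 had 511 and 1020 FPKM in KO against 810 and 1226 FPKM in WT (adjusted p = 0.435), with replicate 2 the higher in both groups.

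AC103739.1, inside CRTC3, a coactivator of CREB, shares 0 exon bases with it and had 1.93 and 1.54 FPKM in KO against 4.62 and 6.05 FPKM in WT (limma adjusted p = 0.0102), and CRTC3 had 5.05 and 4.58 FPKM in KO against 7.32 and 7.02 FPKM in WT (adjusted p = 0.0474). AL354836.1, inside ADRM1, a ubiquitin receptor of the proteasome, shares 124 exon bases with it (18.2%) and fell to 6.20 and 6.18 FPKM in KO against 15.04 and 14.7 FPKM in WT (-1.14, SE 0.12, adjusted p = 0.00546). ADRM1 had 27.9 and 38.7 FPKM in KO against 51.7 and 54.9 FPKM in WT (-0.68, SE 0.19, adjusted p = 0.0556). Calls lost without 1 library in this group were those of TNFRSF10A-AS1 (adjusted p = 0.0689 without WT replicate 2), BX470102.1 (0.0511 without KO replicate 1, 0.0606 without WT replicate 2) and CRTC3 (0.0698 to 0.292, without any 1 of the 4). ADRM1 was called lower without KO replicate 2 (adjusted p = 0.0267) and under quantile normalization (0.0326) or scaling by total reads (0.044).

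The antisense genes with no overlapping partner were set beside the nearest coding gene that starts on the other strand within 1000 bases, which 13 of the 28 had. MAFG-DT, which starts 115 bases from MAFG, a small MAF transcription factor gene, fell to 7.08 and 8.50 FPKM in KO against 17.7 and 16.7 FPKM in WT (log2 change -1.06, SE 0.15, limma adjusted p = 0.00911). MAFG had 16.3 and 23.2 FPKM in KO against 29.2 and 30.3 FPKM in WT (-0.59, SE 0.19, adjusted p = 0.0821). AC131011.1, which starts 217 bases from SAT1, a gene of polyamine breakdown, fell to 0.765 and 1.64 FPKM in KO, from 9 and 18 reads, against 5.14 and 6.08 FPKM in WT, from 63 and 67 reads (-1.61, SE 0.23, adjusted p = 0.00974). SAT1 had 277 and 317 FPKM in KO against 302 and 267 FPKM in WT (0.06, adjusted p = 0.823). AC107959.3, with no such start within 1000 bases, fell to 2.59 and 1.73 FPKM in KO against 8.33 and 7.41 FPKM in WT (-1.50, SE 0.18, adjusted p = 0.00647). The MAFG-DT call was lost without WT replicate 1 (adjusted p = 0.0637).

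Of the same 13, AC090001.1 by the splicing protein gene SNRPF, AC093673.1 by the focal adhesion gene ZYX and AL445524.1 by TSNAX were also called lower (log2 changes of -0.90, -0.73 and -0.64), and none of these neighbours was called. In 3 the neighbour was called and the antisense gene was not. ZC3H12A, an RNase of inflammatory mRNAs beside LINC01137, fell to 6.86 and 7.98 FPKM in KO against 18.9 and 20.1 FPKM in WT. CNN3, a calponin gene beside AC105942.1, rose to 52.1 and 51.2 FPKM in KO against 20.1 and 21.6 FPKM in WT, and NOTCH1, the receptor gene beside NALT1, rose to 5.75 and 6.06 FPKM in KO against 2.86 and 2.26 FPKM in WT. In 0 of the 13 were both called. Single libraries decided the calls of the 3 antisense genes, which without WT replicate 1 had adjusted p of 0.0888, 0.157 and 0.156 and without WT replicate 2 of 0.0821, 0.127 and 0.151, and AC093673.1 and AL445524.1 also lost theirs without KO replicate 1 (0.0591 and 0.061). Of the 3 neighbours NOTCH1 lost its call without WT replicate 2 (0.0791). These 6 antisense genes and their neighbours were named after their values were seen.

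Both genes could be tested in 109 of the 125 pairs. Among the 107 partners in them 14 were called higher and 15 lower, 13.1% and 14.02%, beside 12.1% and 11.1% of all genes tested. Neither share of the partners lay far from that of all genes. The log2 changes of antisense gene and partner had a Pearson r of 0.68 and a Spearman rho of 0.60 over the 109 pairs, which share the same 4 libraries and in some cases a gene. In the 70 pairs with shared exon bases r was 0.82 and rho 0.75, and in the 39 without r was 0.41 and rho 0.32. By arrangement r was 0.80 in 21 tail-to-tail pairs, 0.78 in 44 with the antisense gene inside, 0.58 in 11 with it around the partner and 0.50 in 33 head-to-head pairs. The sign of the change was the same in 78 of 109 pairs, in 55 of the 70 with shared exon bases and in 23 of the 39 without. The antisense gene was the less abundant in 78 of 109 pairs, and its median level was 51.3% of that of the partner. Differences between these groups of pairs were not tested.

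In 16 pairs both genes were called, always in the same direction, 10 up and 6 down, and in 0 pairs in opposite directions. Besides the pairs above these were ZBED5-AS1 with ZBED5, which share 538 exon bases (26.97% of the antisense exon length), and AC024896.1 with TM7SF3, which share 101 (3.96%). ZBED5-AS1 had 4.52 and 5.66 FPKM in KO against 2.55 and 3.24 FPKM in WT (limma adjusted p = 0.0466), and ZBED5, a gene derived from a DNA transposase, had 14.8 and 13.96 FPKM in KO against 7.42 and 6.33 FPKM in WT (adjusted p = 0.0103). AC024896.1 had 6.45 and 6.63 FPKM in KO against 10.6 and 10.6 FPKM in WT, and TM7SF3 had 37.7 and 31.7 FPKM in KO against 56.2 and 53.1 FPKM in WT. Shared exon bases were present in 12 of the 16 pairs, and the 4 without were AC099786.1 with LHX8, AC004923.4 with ALDH3B1, AC103739.1 with CRTC3 and AC015712.7 with ALDH1A3. The count fell to 3 pairs without WT replicate 1, to 5 without WT replicate 2 and to 1 with no filter on low values, and was 11 without KO replicate 1 and 13 without KO replicate 2. ZBED5-AS1 lost its call without any 1 library (adjusted p from 0.0561 to 0.27) and under quantile normalization or scaling by total reads, and ZBED5 without WT replicate 2 (0.078). AC024896.1 lost its call without KO replicate 1 (0.0537), WT replicate 1 (0.172) or WT replicate 2 (0.164), and TM7SF3 without KO replicate 2 (0.0771), WT replicate 1 (0.227) or WT replicate 2 (0.167).

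In 25 pairs the antisense gene alone was called and in 14 the partner alone. Like counts over all 892 opposite-strand pairs were not made, so the counts of called pairs have no background beside them. Of the 14, 9 shared no exon bases, and of the 25, 5 shared none. PVR, which encodes a cell-adhesion receptor, rose to 60.5 and 61.3 FPKM in KO against 30.1 and 33.2 FPKM in WT, while AC243964.2, which reaches around it, had 2.86 and 2.93 FPKM in KO against 3.63 and 3.87 FPKM in WT (limma adjusted p = 0.17). PPP1R15B, which encodes a phosphatase subunit, fell to 17.7 and 14.8 FPKM in KO against 41.0 and 36.4 FPKM in WT, while AL606489.1 had 3.64 and 3.89 FPKM in KO against 2.48 and 3.39 FPKM in WT (adjusted p = 0.258). PDCD4, an inhibitor of translation initiation, rose to 11.1 and 12.2 FPKM in KO against 6.08 and 6.71 FPKM in WT, while PDCD4-AS1 had 2.79 and 3.14 FPKM in KO against 3.73 and 3.92 FPKM in WT (adjusted p = 0.183). These 3 pairs share 0 exon bases and were named after their values were seen, and each antisense gene lay on the opposite side of WT from its partner without passing the test. The calls of PVR and PDCD4 were lost without WT replicate 1 (0.103 and 0.136) or 2 (0.0619 and 0.0866), and that of PPP1R15B without WT replicate 1 (0.0518).

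**Figure D4:**
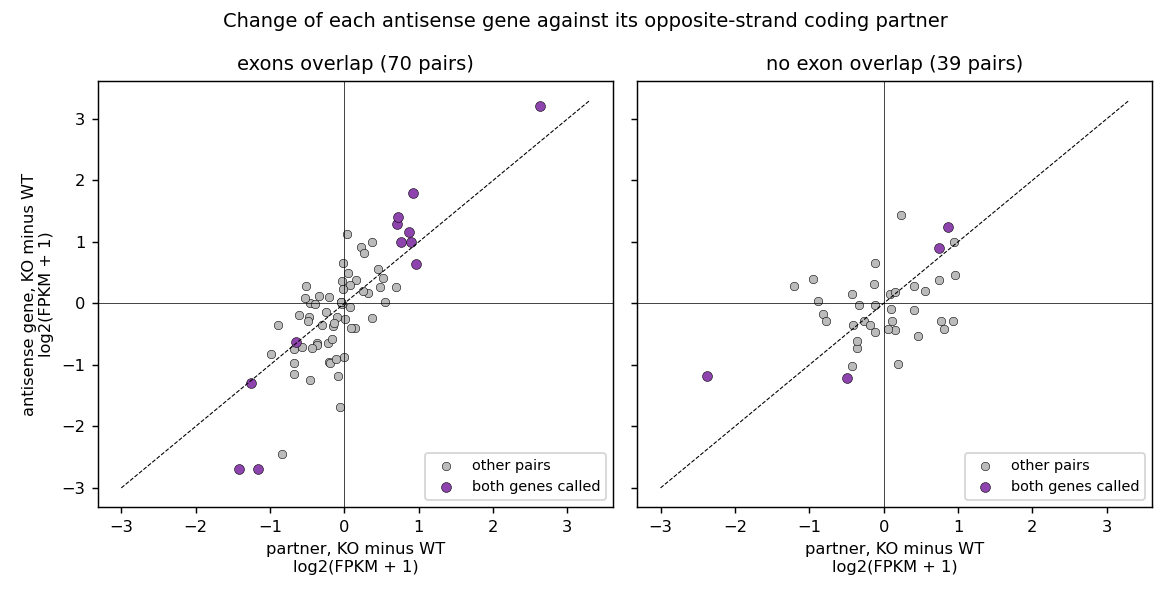
KO minus WT change, on the log2(FPKM + 1) scale, of each antisense gene (vertical) against its coding partner (horizontal), for the 70 pairs with shared exon bases (left) and the 39 without (right). The dashed line marks equal change, purple points are the 16 pairs in which both genes were called, and all 16 lie where both changes have the same sign.

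The difference between the 2 genes of a pair was tested directly as a log2 ratio over all 892 opposite-strand pairs of a noncoding and a coding gene in which both were measured. Of these 19 (2.13%) were called, and 3 of the 109 pairs described here were among them, a share near that of all pairs. In all 3 the antisense gene fell more than its partner. The differences were -1.63 (SE 0.27) for AC007773.1 and DPY19L3, -1.61 (SE 0.26) for AC005722.3 and ALDH3A1 and -1.54 (SE 0.26) for AL157935.1 and DPM2, each at a limma adjusted p of 0.0496. An unadjusted p under 0.05 was reached by 24 of the 109. These 3 calls lay at the threshold and were lost without any 1 library (adjusted p of 0.0549 to 0.254), with a pseudocount of 0.1 (0.131) or 0.5 (0.0815), and under quantile normalization (0.0526 to 0.0644), while their differences kept the same sign in each.

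**Figure D5:**
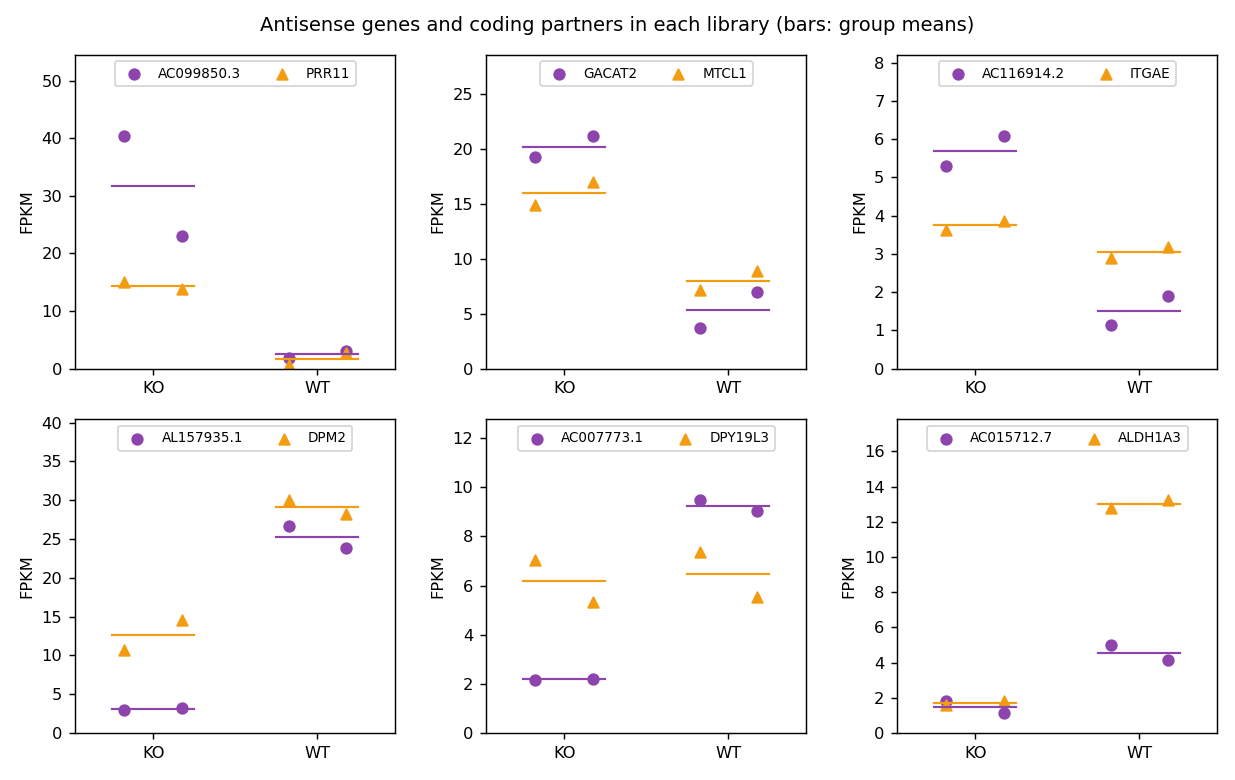
Level (FPKM, linear axis from 0) of 6 antisense genes (purple circles) and their coding partners (orange triangles) in each library, KO left and WT right, with bars at group means. AC099850.3 with PRR11 and GACAT2 with MTCL1 are both higher in KO, while AC007773.1 is lower in KO, 2.17 and 2.20 against 9.47 and 9.04 FPKM, beside a DPY19L3 whose groups overlap.

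Among 27 tested RNAs of a list of well-known antisense and regulatory noncoding RNAs 6 rose and 1 fell, 22.2% and 3.70% beside the 12.1% and 11.1% of all genes, and 6 of the list belong to the 132. Of these 7 calls 0 held without any 1 library. Of the 6 that belong, HOXB-AS3 is described above. THAP9-AS1, which shares 199 exon bases with THAP9, rose to 5.35 and 4.34 FPKM in KO against 2.78 and 2.62 FPKM in WT (log2 change 0.65, SE 0.15, limma adjusted p = 0.032), a call lost without KO replicate 1 (0.0902), WT replicate 1 (0.156) or WT replicate 2 (0.175). FOXD3-AS1 had 1.47 and 2.93 FPKM in KO against 4.13 and 4.95 FPKM in WT (adjusted p = 0.0656). Its partner FOXD3, a neural crest transcription factor gene with 179 shared exon bases (14.8%), had 0.821 and 1.55 FPKM in KO against 2.99 and 3.60 FPKM in WT (-0.99, SE 0.21, adjusted p = 0.0267), and that call was lost without KO replicate 1 (0.0592), WT replicate 1 (0.0699) or WT replicate 2 (0.109), while FOXD3-AS1 was called without KO replicate 2 (0.0239). ARRDC1-AS1 had 6.15 and 8.69 FPKM in KO against 7.02 and 7.77 FPKM in WT, with overlapping groups, and its partner ARRDC1, with 29 shared exon bases, had 9.14 and 12.3 FPKM in KO against 14.4 and 14.2 FPKM in WT (adjusted p = 0.153). PSMA3-AS1 had 4.69 and 4.15 FPKM in KO against 4.77 and 4.91 FPKM in WT, beside PSMA3, a proteasome subunit gene with 0 shared exon bases, at 31.1 and 32.5 FPKM in KO against 23.0 and 24.3 FPKM in WT (adjusted p = 0.0758).

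Genes of the machinery that makes, trims and removes noncoding RNA were also measured. A list of 23 genes held those of the RNA exosome and its nuclear targeting complexes, and also the nuclease gene XRN2, which belongs to neither. Of the 23, 4 rose and 0 fell: EXOSC9 to 7.26 and 5.84 FPKM in KO against 1.94 and 2.03 FPKM in WT, XRN2 to 74.2 and 58.7 FPKM in KO against 35.8 and 33.9 FPKM in WT, ZFC3H1 to 10.4 and 8.10 FPKM in KO against 5.90 and 5.04 FPKM in WT, and EXOSC8 to 6.56 and 6.12 FPKM in KO against 4.36 and 4.15 FPKM in WT (limma adjusted p from 0.0059 to 0.0487). With XRN2 counted, that is 17.4% of the list beside the 12.1% of all genes, and the share rests on few genes. The median change of the list was 0.27 against 0.03 over all genes. Of 25 genes of the Integrator complex and of 3′ end cleavage 4 (16.0%) rose and 0 fell, namely INTS8, CPSF3, CSTF3 and INTS1. Of 15 nonsense-mediated decay genes 0 rose and 2 (13.3%) fell, among them SMG8. Of 18 genes of double-stranded RNA binding and processing 2 (11.1%) rose and 0 fell, among them DROSHA, which cuts microRNA precursors, at 11.9 and 9.78 FPKM in KO against 6.56 and 5.94 FPKM in WT. Beside the 12.1% and 11.1% of all genes, the shares that rose in the Integrator and double-stranded RNA lists and the share that fell in the decay list were near the background. Of the 12 genes called in these 4 lists EXOSC9 alone stayed called without any 1 library, and without WT replicate 1 the adjusted p of the others ran from 0.0511 to 0.308.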

How the data were processed

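The values analysed were the FPKM values per gene and library that the authors deposited. Reads were aligned with HISAT2 2.0.5, per the submitters' processing notes, which name the builds hg38 and mm10. All 58735 genes matched GENCODE release 29 in coordinates and merged exon length, so coordinates are on GRCh38. The sources used here give neither the counting tool nor its strand setting. FPKM times length was a whole multiple of 1 step in 100% of values (tolerance 0.05 reads), which gave the read numbers.

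Members, lists and tests were chosen with earlier results of these data known. Values were fitted as log2(FPKM + 1), a scale that understates changes of low genes, in R 4.3.3 with limma 3.58.1 (intensity-dependent prior), over 14100 genes that reached 1 FPKM in 2 or more libraries, with Benjamini-Hochberg adjustment over all of them and a threshold of 0.05. Only the 132 selected genes, their partners and listed genes are printed. Antisense to partner ratios were fitted without the trend over 892 pairs. A 2 against 2 design was fitted with no replicate block. Same-numbered libraries deviated together (correlation 0.411 over 14100 genes, 0.372 over the 132), but 2 pairs with no shared batch in the labels do not establish pairing. The fits were also run on simulated counts, drawn independently for each library with few changed genes. Those counts lacked the deviation shared by same-numbered libraries, so that run is a check of the code and no support for the calls above.

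Named genes are CALU, the 12 largest called rises and 12 largest called falls with groups that do not overlap, the 8 most abundant antisense genes, those called in the ratio fit, partners with a mean of at least 1 FPKM, antisense genes of a list of well-known antisense RNAs, and up to 4 called genes of each other list. Of the p53 and cell-division lists mostly counts are given. A few partners, listed genes and sequences are not reported here. Alternatives were pseudocounts of 0.1 and 0.5, no filter, quantile normalization, scaling by total reads, a replicate block, other minimum levels and overlaps, and leaving out each library.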

Additional observations from a re-analysis of the deposited data

How the results depend on the processing

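The change reversed only for genes that were never called, on leaving out 1 library. Over the 4 such fits it ran from -0.27 (without KO replicate 1) to 0.67 for AL391427.1, from -0.41 (without WT replicate 1) to 1.41 for TGFB2-AS1, from -0.23 to 0.21 (without KO replicate 1) for ARRDC1-AS1, from -0.96 to 0.033 (without KO replicate 1) for S100A6, from -0.23 to 0.12 (without WT replicate 1) for DPY19L3 and from -0.16 to 0.13 (without KO replicate 2) for NR2C2. Fitted without the filter, 183 genes rose and 193 fell over the whole table, 0 and 3 of the antisense genes and 0 and 2 of the partners, both genes of a pair were called in 1 pair, and the ratio fit called 273 pairs, 10 of them with one of the 132; the cause was not tested. A pseudocount of 0.1 or 0.5 left 0 ratio calls, and quantile normalization left 11, with 0 among the 132, while the counts of antisense genes stayed within 1.5 times. With the replicate number as a block 2968 genes were higher and 2577 lower, 28 antisense genes were higher, 24 partners higher and 26 lower, the ratio fit called 131 pairs and 16 among the 132, and both genes were called in 29 pairs with the same and 2 with opposite signs. All 50 antisense calls were kept under the block. At a minimum mean of 5 FPKM 8 antisense genes were higher and 19 lower, by construction from fewer genes. Added after seeing the data, antisense genes with no shared exon bases gave 6 higher and 13 lower, and pairs with none gave 4 with both called. On leaving out each library in turn the counts ran from 505 to 1321 higher and 537 to 1260 lower over all genes, 4 to 14 and 11 to 28 for the antisense genes, 2 to 14 and 3 to 14 for the partners, 3 to 13 for pairs with both called, and 0 to 0 for ratio calls, and the median change of the antisense genes from -0.20 to -0.040. The median over all genes was 0.03 as deposited, -0.002 after quantile normalization and -0.01 after scaling by total reads. With 2 libraries a group and as few as 6 reads a library, small changes of low genes were not detectable at this depth.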
